A study of Sus scrofa with 9 samples.

Results

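Organic anions and cations cross the membranes of liver cells through a few families of carriers, and 39 of the 29837 gene symbols in the deposited liver count table belong to these families. The families were picked with earlier results of these data known, and their members were then matched by symbol alone. Of the members, 10 are SLCO genes, 18 are SLC22A genes and 11 are ABCC genes, while 0 rows matched the SLC47A pattern. CFTR, which the RefSeq gene table also lists as an ABCC gene, is not matched by its symbol and is not a member. The libraries came from the livers of 4 pigs with MIDY, a diabetes of youth that is induced by a mutant INS gene, and from 5 wild type (WT) pigs; every animal was female and aged 2 years. The MIDY animals carry a transgene for the C94Y form of insulin; the sources used here do not give its promoter or founder line. Diabetic animals were given short-acting and long-acting insulin, per the labels, so the transgene, the diabetes and the insulin treatment cannot be told apart in this comparison. All animals were fed daily and had free access to water.

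Carriers of the SLCO family, also called organic anion transporting polypeptides, take up bile acids, bilirubin, steroid conjugates, thyroid hormones, prostaglandins and many drugs without using ATP. The SLC22A family holds carriers of organic cations, of carnitine and related zwitterions, and of organic anions, and in liver most of them face the blood. ABCC proteins are ATP-driven pumps that mostly move conjugated anions out of the cell, either into bile or back into blood, although some members are subunits that set the activity of potassium channels. A hepatocyte thus combines uptake on its blood side with export on its bile side. The roles of single members are given here as known mainly from humans and rodents.

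Total counts ranged from 14115415 to 19533463 per library. Levels are given as CPM, counts per 1e6 of the library size after TMM scaling, and they are not corrected for transcript length, so they are compared between animals and not between genes. Hepatocyte markers such as ALB and TF summed to 153427 to 185515 CPM in MIDY and 127217 to 186422 CPM in WT livers, and 0 of 8 were called. INS had 3 counts over all MIDY and 2 over all WT libraries, too few to check the genotype labels. Of the 39 members, 24 passed the low-count filter and were tested, and 15 did not. With the quasi-likelihood test of edgeR, 1.17% of 14100 genes were called at a Benjamini-Hochberg adjusted p below 0.05; among the 24 tested members the call fell on 1 gene, SLCO2A1, which is 4.17% of them. SLCO2A1 is named in the choice of these families because earlier results of the same data had shown it to rise, so its call here is not independent evidence. In the direction of that call the share over all genes was 0.816%, and 0 members were called lower, against 0.355% of all genes.

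SLCO2A1 encodes the prostaglandin transporter, which carries prostaglandins into cells ahead of their oxidation and is known from vascular endothelium among other cells. It lies on chromosome 13, 75108540 to 75189660, on Sscrofa11.1, and no other gene model of the RefSeq table overlaps it. Its level was 11.9, 26.0, 9.22 and 3.20 CPM in MIDY livers 1 to 4, against 1.25, 1.10, 1.24, 2.71 and 1.98 CPM in WT livers 1 to 5. The raw counts behind these levels were 191, 375, 175 and 61 in MIDY and 18, 22, 18, 43 and 35 in WT libraries. All 4 MIDY livers lay above all 5 WT livers, but MIDY replicate 4 was close to WT replicate 4, and MIDY replicate 2 stood far above the other MIDY livers.

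SLCO2A1 averaged 12.6 ± 9.67 CPM in MIDY livers (SD, n = 4) and 1.66 ± 0.68 CPM in WT livers (SD, n = 5). The fitted rise was 7.53-fold (edgeR adjusted p = 0.0436), with a log2 value of 2.91 ± 0.55 (SE). The MIDY livers differed among themselves by 8.14-fold from lowest to highest. The coefficient of variation, the SD over the mean, was 76.8% for SLCO2A1 in MIDY livers, against a median of 25.4% over the 24 tested members. In WT livers it was 41.2% for SLCO2A1, against a median of 18.4%. These medians mix members with few and with many counts, and ABCC8, another member with few counts, had 76.6% in MIDY and 91.2% in WT livers. The call of SLCO2A1 was kept in 1 of 9 fits that each left out a library, the one without MIDY replicate 4 (edgeR adjusted p = 0.00463), and in the other 8 the adjusted p was 0.0608 to 0.107. Without MIDY replicate 2 the fitted fold was 4.88, with an edgeR unadjusted p of 0.000193, against 0.000431 with all 9 libraries. That fit called 38 genes over the table, against 165 with all libraries, and its adjusted p for SLCO2A1 was 0.0608. The call was also lost without the low-count filter (edgeR adjusted p = 0.0917), with limma voom (adjusted p = 0.119) and without WT replicates 1 and 2 together (edgeR adjusted p = 0.167).

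**Figure D1:**
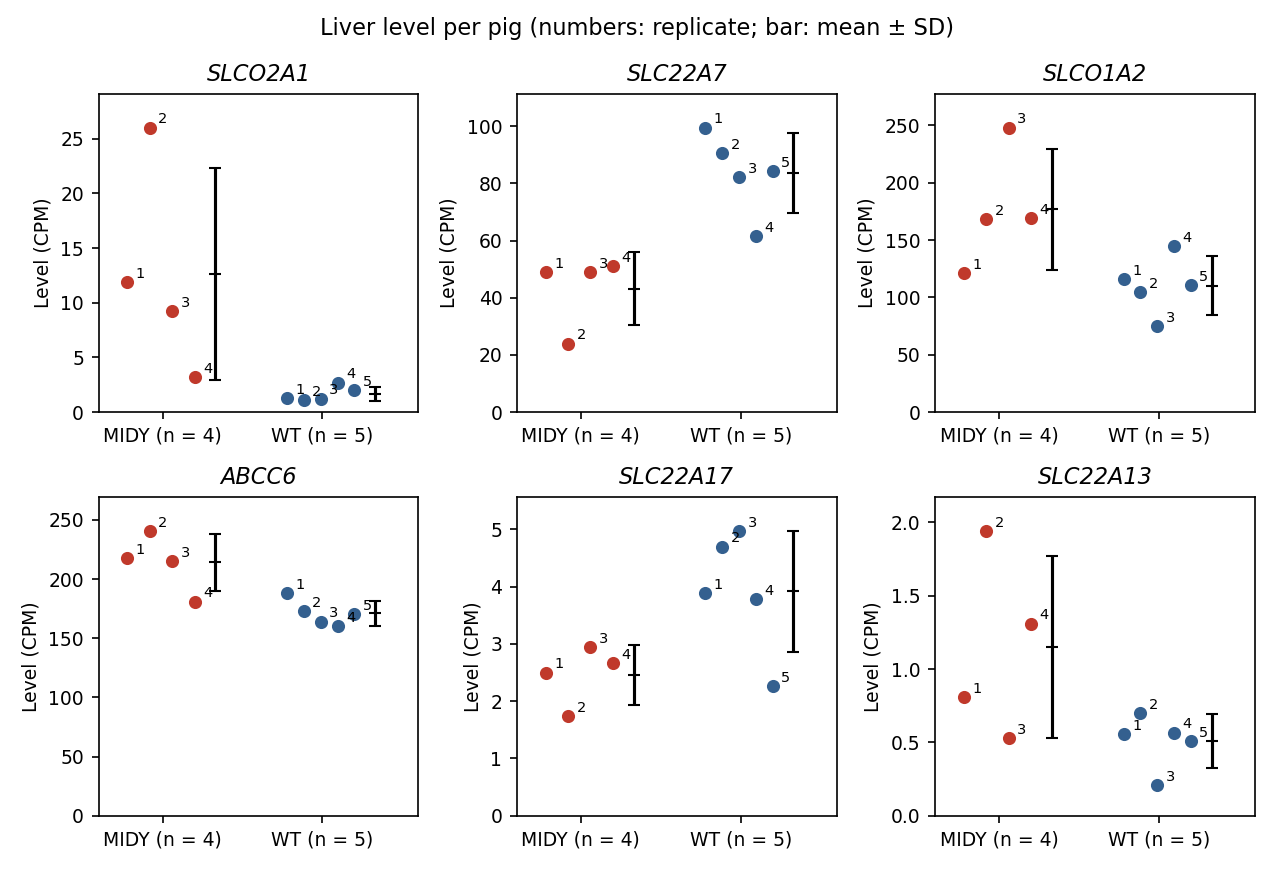
Level in CPM (vertical axes, from 0) of the 6 members with an unadjusted p below 0.05, in each MIDY liver (red, left) and WT liver (blue, right); numbers are replicates and bars show mean ± SD. SLCO2A1 spans 3.20 to 26.0 CPM in MIDY and 1.10 to 2.71 CPM in WT livers; SLC22A7 has every MIDY liver at or below 51.0 CPM and every WT liver at or above 61.6 CPM, and the other 4 panels overlap.

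In bulk liver, fewer cells of a type and less RNA per cell cannot be told apart, and the same holds for more cells and more RNA per cell. Beside the rise of SLCO2A1, the 10 vascular endothelial markers summed to 515 to 546 CPM in MIDY and 558 to 666 CPM in WT livers. Of these 10, 0 were called higher and EMCN was called lower, with 4.78 ± 0.16 CPM in MIDY and 7.97 ± 0.81 CPM in WT livers (SD, n = 4 and 5; edgeR adjusted p = 0.0273). The endothelial sum was lower in every MIDY liver than in every WT liver. Its largest part was KDR, with a mean of 191 CPM in both groups. The 7 sinusoidal endothelial markers found in the table summed to 539 to 606 CPM in MIDY and 438 to 579.6 CPM in WT livers, with 0 called. Bile duct markers summed to 41.7 to 63.6 CPM in MIDY and 55.4 to 107 CPM in WT livers, with 0 of 8 called. Stellate cell and fibroblast markers summed to 284 to 403 CPM in MIDY and 379 to 643 CPM in WT livers, and the collagen gene COL1A2 was called lower (edgeR adjusted p = 0.0434). Macrophage markers summed to 669.6 to 922 CPM in MIDY and 741 to 1029.6 CPM in WT livers, with 0 of 10 called. T and NK cell markers summed to 22.9 to 26.1 CPM in MIDY and 28.7 to 46.2 CPM in WT livers, and CD2 was called lower of 8 tested (edgeR adjusted p = 0.0377). The 6 intestinal epithelium markers summed to 2.43 to 4.35 CPM in MIDY and 5.42 to 14.7 CPM in WT livers, with no overlap and with FABP2 at 0 in every library. The 1 of them that was tested, VIL1, an actin-bundling protein of microvilli that bile duct cells also make, was called lower, with 2.91 ± 0.874 CPM in MIDY and 7.75 ± 2.15 CPM in WT livers (SD, n = 4 and 5; edgeR adjusted p = 0.0234). The sums of the other blood cell and carried-in tissue lists overlapped between the groups, and 0 of their tested markers were called. B and plasma cell markers summed to 16.0 to 23.6 CPM in MIDY and 22.4 to 55.5 CPM in WT livers, and neutrophil markers to 4.88 to 7.61 CPM in MIDY and 7.23 to 12.8 CPM in WT livers. Erythroid markers summed to 162 to 536 CPM in MIDY and 69.1 to 1493 CPM in WT livers. Exocrine pancreas markers summed to 1.18 to 4.20 CPM in MIDY and 0.345 to 2.37 CPM in WT livers, and mesothelial markers to at most 0.486 CPM in MIDY and 0.487 CPM in WT livers. The part of any of these cells in the level of SLCO2A1 was not tested.

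Prostaglandins are made from arachidonic acid by the cyclooxygenases PTGS1 and PTGS2, act on surface receptors and are inactivated by the dehydrogenase HPGD. Of 24 listed genes of prostaglandin synthesis, breakdown and reception, 19 were tested and 0 were called in either direction. The median log2 fold change of the 19 was -0.32, against -0.005 over all genes tested, and 16 of them had a value below 0. PTGDS, a prostaglandin D synthase, averaged 4.83 ± 0.36 CPM in MIDY and 7.92 ± 2.72 CPM in WT livers (SD, n = 4 and 5, log2 fold change -0.71 ± 0.23 SE, edgeR adjusted p = 0.161). The groups of PTGDS did not overlap, as in 2.63% of all tested genes as lower in MIDY. The inducible cyclooxygenase PTGS2 was low, with 0.535 ± 0.254 CPM in MIDY and 1.18 ± 0.57 CPM in WT livers (SD, n = 4 and 5; edgeR adjusted p = 0.249). HPGD, named here for its role, averaged 208 ± 31.0 CPM in MIDY and 179.7 ± 27.4 CPM in WT livers (SD, n = 4 and 5; edgeR adjusted p = 0.490).

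The 4 other tested SLCO genes were not called. SLCO1A2, an uptake carrier of bile salts, steroid sulfates and thyroid hormones, lies on chromosome 5, 52020303 to 52133132. Its level was 121, 168, 248 and 169 CPM in MIDY livers 1 to 4, against 116, 105, 74.8, 145 and 111 CPM in WT livers 1 to 5. In 3 of 4 MIDY livers SLCO1A2 lay above every WT liver, and MIDY replicate 1 lay within the WT range. The fitted log2 fold change was 0.68 ± 0.21 (SE; edgeR adjusted p = 0.154). PYROXD1 and IAPP overlap the span of SLCO1A2, and IAPP had 5 counts over all libraries while PYROXD1 had a log2 fold change of 0.00 ± 0.20 (SE).

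Only 4322 bases separate SLCO1A2 from SLCO1B3 (chromosome 5, 52137454 to 52206236), the sole SLCO1B gene among the members. SLCO1B carriers bring bilirubin conjugates, bile acids and statins into hepatocytes. SLCO1B3 had 1805, 1492, 1698 and 1921 CPM in MIDY livers 1 to 4, against 2034, 2203, 1677, 2155 and 2040.3 CPM in WT livers 1 to 5. The groups overlapped through WT replicate 3, and the gene was not called (log2 fold change -0.23 ± 0.12 SE, edgeR adjusted p = 0.397). Within each library there were 6.71, 11.3, 14.6 and 8.79 counts of SLCO1A2 per 100 counts of SLCO1B3 in MIDY livers, against 5.72, 4.77, 4.46, 6.75 and 5.42 in WT livers. This ratio needs no scaling between libraries; 3 of 4 MIDY livers exceeded every WT liver in it, and MIDY replicate 1 fell just under WT replicate 4.

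SLCO2B1, an uptake carrier of steroid sulfates, averaged 96.7 ± 13.6 CPM in MIDY and 107 ± 11.4 CPM in WT livers (SD, n = 4 and 5; edgeR adjusted p = 0.562). SLCO3A1, which also accepts prostaglandins, was low in both groups, with 1.19, 2.22, 1.26 and 0.682 CPM in MIDY livers 1 to 4 and 2.02, 2.10, 2.00, 1.77 and 2.77 CPM in WT livers 1 to 5. Its MIDY livers 1, 3 and 4 lay below every WT liver and MIDY replicate 2 lay among them, so SLCO3A1 ran opposite to SLCO2A1 in its fitted sign (log2 fold change -0.69 ± 0.32 SE, edgeR adjusted p = 0.312). Across the 5 tested SLCO genes 2 fitted values were above 0 and 3 below, with a median of -0.15.

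**Figure D2:**
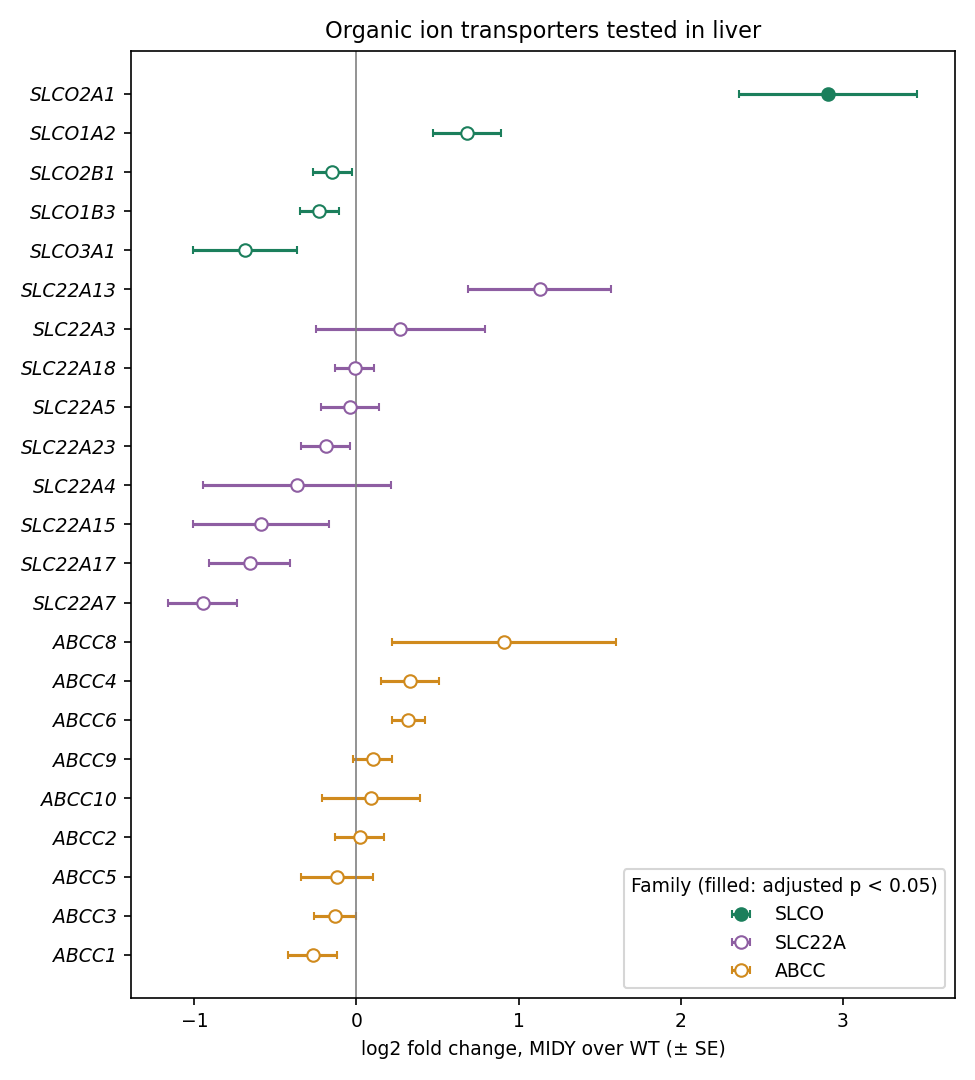
Fitted log2 fold change of MIDY over WT (horizontal axis, ± SE) for 23 of the 24 tested members, coloured by family and filled where the edgeR adjusted p is below 0.05. SLCO2A1 at 2.91 is the filled point; the other 22 shown lie between -0.95 for SLC22A7 and 1.13 for SLC22A13.

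Among the SLC22A genes the gene with the smallest p was SLC22A7, an organic anion carrier of the blood-facing hepatocyte membrane. It lies on chromosome 7, 38328474 to 38334879. Its level was 48.9, 24.0, 49.0 and 51.0 CPM in MIDY livers 1 to 4, against 99.5, 90.5, 82.3, 61.6 and 84.4 CPM in WT livers 1 to 5. All 4 MIDY livers lay below all 5 WT livers, 3 of the MIDY livers were within a few CPM of each other, and MIDY replicate 2 was far lower. SLC22A7 averaged 43.2 ± 12.8 CPM in MIDY livers (SD, n = 4) and 83.7 ± 14.0 CPM in WT livers (SD, n = 5), a log2 fold change of -0.95 ± 0.21 (SE), and it missed the threshold (edgeR adjusted p = 0.0571). DESeq2 called it lower with an adjusted p of 0.00118; that tool called 2.05% of its genes lower and 2.57% higher, and of the members it also called SLCO2A1 and SLCO1A2 higher. Limma voom called 0 members, against 1.04% of all genes higher and 0.582% lower. CRIP3, which overlaps the end of SLC22A7, had 42 counts over all libraries.

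Over the 24 tested members the groups did not overlap in 2 genes, SLCO2A1 as higher and SLC22A7 as lower in MIDY livers. Such separation was seen in 3.72% of all tested genes as higher and 2.63% as lower in MIDY. In either direction the share was 8.33% of the members and 6.35% of all tested genes. At an unadjusted p below 0.05 there were 6 members, or 25.0%, against 16.1% of all tested genes. Fitted values were above 0 for 11 members and below 0 for 13, and 45.8% above 0 compares with 49.3% of all tested genes. The median over the members was -0.02. With 24 members, each of these shares rests on a few genes. SLCO2A1, whose rise was known when the families were chosen, is counted in each share of the members. The shares are therefore a description and not independent evidence.

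SLC22A2, the cation carrier of kidney tubules, had 3 counts, all in WT replicate 3. SLC22A3, a low-affinity monoamine carrier, averaged 0.763 ± 0.316 CPM in MIDY and 0.613 ± 0.480 CPM in WT livers (SD, n = 4 and 5). Its span overlaps PLG, a plasminogen gene with 463955 counts over all libraries against 3 to 28 counts of SLC22A3 per library, and since the strand setting of the counting is not given, the counts of SLC22A3 are uncertain.

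SLC22A5, the carnitine carrier needed for fatty acid oxidation, was close in the groups. It had 3.93, 4.65, 3.79 and 5.30 CPM in MIDY livers 1 to 4, against 4.59, 4.85, 4.56, 3.34 and 5.31 CPM in WT livers 1 to 5 (log2 fold change -0.04 ± 0.18 SE, edgeR adjusted p = 0.948). The span of SLC22A5 overlaps 5 other gene models, IRF1 and RAD50 among them, so its counts are uncertain. SLC22A4, the ergothioneine carrier beside it, had 1 to 14 counts per library and a log2 fold change of -0.37 ± 0.58 (SE). Of 11 genes of carnitine synthesis and use, all were tested and 0 were called, with a median log2 fold change of 0.44. CROT, the peroxisomal carnitine octanoyltransferase, averaged 169 ± 18.3 CPM in MIDY and 112 ± 21.5 CPM in WT livers (SD, n = 4 and 5, edgeR adjusted p = 0.0661). Its groups did not overlap, as in 3.72% of all tested genes as higher in MIDY. SLC25A29, a mitochondrial carrier, averaged 12.7 ± 4.66 CPM in MIDY and 8.33 ± 1.55 CPM in WT livers (SD, n = 4 and 5; edgeR adjusted p = 0.225).

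SLC22A17, a cell surface receptor for lipocalin, had 2.50, 1.74, 2.95 and 2.67 CPM in MIDY livers 1 to 4, against 3.89, 4.70, 4.97, 3.78 and 2.26 CPM in WT livers 1 to 5. WT replicate 5 lay within the MIDY range, while the other WT livers lay above it (log2 fold change -0.66 ± 0.25 SE, edgeR adjusted p = 0.224). SLC22A13, a carrier of nicotinate and urate, had 0.811, 1.94, 0.527 and 1.31 CPM in MIDY livers 1 to 4, against 0.556, 0.699, 0.207, 0.567 and 0.508 CPM in WT livers 1 to 5. MIDY replicate 3 lay within the WT range and the other MIDY livers above it (log2 fold change 1.13 ± 0.44 SE, edgeR adjusted p = 0.232). These levels rest on 3 to 28 counts of SLC22A13 per library, so counting error alone is large. Of 8 listed genes of urate handling, 7 were tested and 0 called; the smallest p values were those of PNP, a purine phosphorylase (log2 fold change -0.97 ± 0.39 SE, edgeR adjusted p = 0.250), and XDH, which makes urate (-0.23 ± 0.12 SE, edgeR adjusted p = 0.377).

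Other tested SLC22A genes are SLC22A18 and SLC22A23, whose substrates are little defined, and SLC22A15. SLC22A18 varied least of all tested members among MIDY livers, with 43.0 ± 1.16 CPM there and 43.2 ± 6.77 CPM in WT livers (SD, n = 4 and 5; log2 fold change -0.01 ± 0.12 SE). SLC22A23 averaged 16.2 ± 1.66 CPM in MIDY and 18.4 ± 3.41 CPM in WT livers (SD, n = 4 and 5; log2 fold change -0.19 ± 0.15 SE). SLC22A15 had 6 to 27 counts per library and a log2 fold change of -0.59 ± 0.42 (SE). Of the 10 tested SLC22A genes 3 fitted values were above 0 and 7 below, with a median of -0.11.

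**Figure D3:**
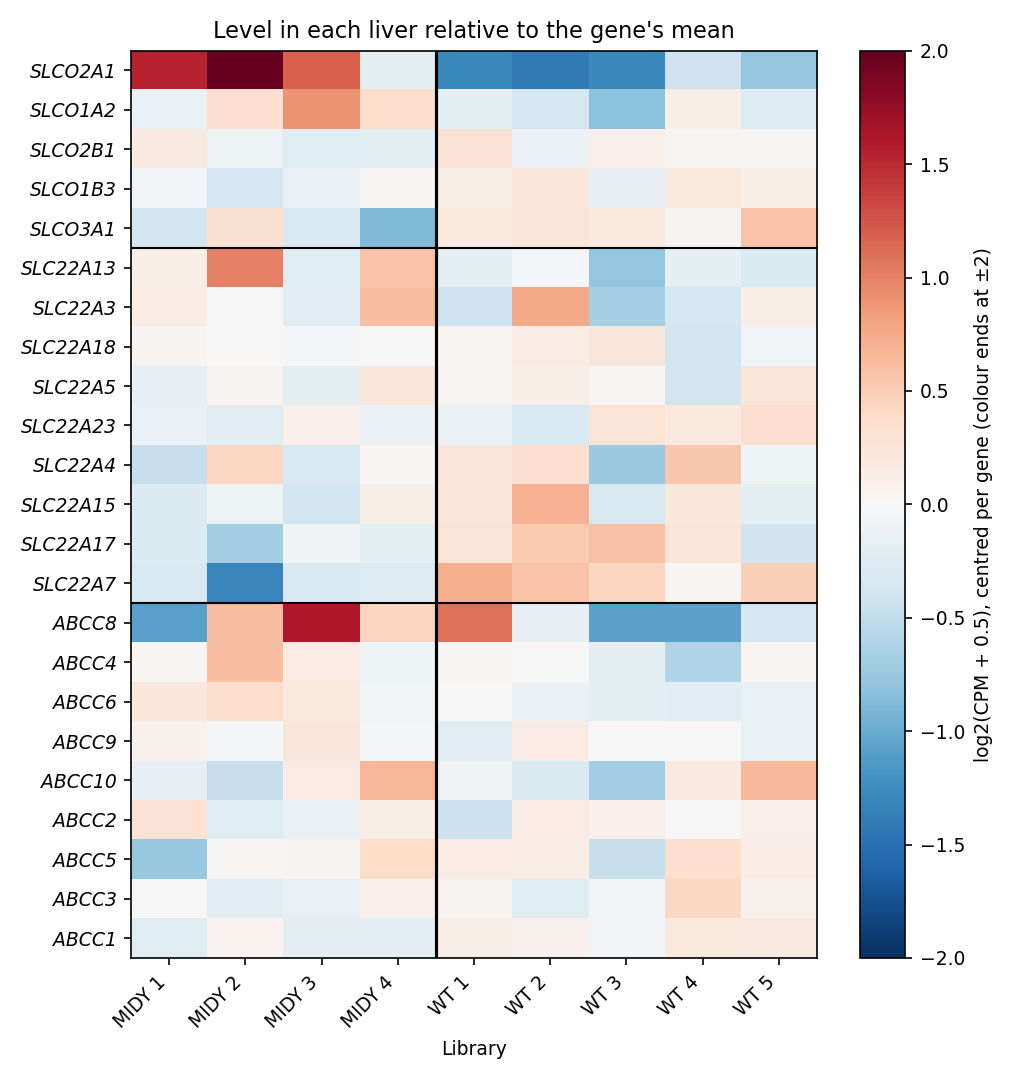
Level of 23 of the 24 tested members in each liver relative to the gene's mean over the 9 livers, as log2(CPM + 0.5) centred per gene (red above, blue below, colours end at ±2), with MIDY livers left of the heavy line and families separated by thin lines. The row of SLCO2A1 splits the groups most plainly, SLC22A7 splits them in the other direction, and MIDY replicate 2 holds the highest MIDY level of 7 members and the lowest of 8 others.

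Of the ABCC genes, ABCC2 is the bile-side pump for bilirubin glucuronides and glutathione conjugates. It had 456, 315, 337 and 409 CPM in MIDY livers 1 to 4, against 276, 417, 399, 374 and 400.5 CPM in WT livers 1 to 5. The groups overlapped and their means differed by less than the spread within either, with 379 ± 64.9 CPM in MIDY and 373 ± 56.5 CPM in WT livers (SD, n = 4 and 5; log2 fold change 0.02 ± 0.15 SE, edgeR adjusted p = 0.963). ABCC3 pumps such conjugates back into blood and averaged 35.4 ± 3.48 CPM in MIDY and 38.8 ± 6.81 CPM in WT livers (SD, n = 4 and 5; log2 fold change -0.13 ± 0.13 SE). ABCC4, which exports cyclic nucleotides, prostaglandins and bile acids, averaged 12.1 ± 2.81 CPM in MIDY and 9.55 ± 1.74 CPM in WT livers (SD, n = 4 and 5; log2 fold change 0.33 ± 0.18 SE, edgeR adjusted p = 0.398). Of SLCO2A1, SLCO3A1 and ABCC4, each described here as moving prostaglandins, only SLCO2A1 was called with all 9 libraries (edgeR adjusted p = 0.0436). That call was kept in 1 of 9 fits that left out a library. The other members were not sorted by whether they move prostaglandins.

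ABCC6, expressed mainly in liver and needed there for the release of ATP that yields the mineralisation inhibitor pyrophosphate, lies on chromosome 3, 28260935 to 28356706. Its level was 218, 240.5, 215 and 181 CPM in MIDY livers 1 to 4, against 188, 173, 164, 160.2 and 170.1 CPM in WT livers 1 to 5. In 3 of 4 MIDY livers it lay above every WT liver, and MIDY replicate 4 lay under WT replicate 1 (log2 fold change 0.32 ± 0.10 SE, edgeR adjusted p = 0.161). ABCC1, an export pump for glutathione conjugates, starts 4162 bases away and had 3.87, 4.93, 4.00 and 4.04 CPM in MIDY livers 1 to 4, against 5.14, 4.95, 4.49, 5.42 and 5.37 CPM in WT livers 1 to 5. In 3 of 4 MIDY livers ABCC1 lay below every WT liver (log2 fold change -0.27 ± 0.15 SE, edgeR adjusted p = 0.413). Within each library there were 56.2, 48.8, 53.7 and 44.8 counts of ABCC6 per count of ABCC1 in MIDY livers, against 36.5, 35.0, 36.6, 29.5 and 31.7 in WT livers. The ratio did not overlap between the groups. The pair was chosen for its position on the chromosome, with the values of both genes known, and was given no test. SLC22A4 and SLC22A5, also neighbours of the same family, gave 4.76 to 16.4 counts of SLC22A4 per 100 counts of SLC22A5 in MIDY livers. In WT livers that ratio was 1.52 to 26.4, so the groups overlapped. How often ratios of other gene pairs separate the groups was not counted.

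ABCC8 and ABCC9 are the sulfonylurea receptor subunits of ATP-sensitive potassium channels, and ABCC8 is the form of pancreatic beta cells. ABCC8 had 0.686, 3.33, 7.16 and 2.88 CPM in MIDY livers 1 to 4, against 4.87, 1.75, 0.690, 0.693 and 1.47 CPM in WT livers 1 to 5. The groups overlapped over most of their ranges, and the coefficient of variation was 76.6% in MIDY and 91.2% in WT livers (log2 fold change 0.91 ± 0.69 SE, edgeR adjusted p = 0.564). Single livers moved this value: the log2 fold change of ABCC8 was 0.29 without MIDY replicate 3, 1.59 without WT replicate 1 and 1.87 without WT replicates 1 and 2, and it was not called in any of these (edgeR adjusted p = 0.912, 0.216 and 0.252). ABCC9, known from vascular smooth muscle, was steady at 18.6 ± 1.73 CPM in MIDY and 17.4 ± 1.90 CPM in WT livers (SD, n = 4 and 5; log2 fold change 0.10 ± 0.12 SE). Of the channel pores they join, KCNJ8 averaged 5.00 ± 1.13 CPM in MIDY and 5.63 ± 1.22 CPM in WT livers (SD, n = 4 and 5; edgeR adjusted p = 0.738), and KCNJ11 was below the filter. ABCC5, an exporter of cyclic nucleotides, averaged 18.7 ± 5.69 CPM in MIDY and 20.3 ± 3.90 CPM in WT livers (SD, n = 4 and 5; log2 fold change -0.12 ± 0.22 SE). ABCC10 averaged 8.09 ± 2.97 CPM in MIDY and 7.61 ± 2.89 CPM in WT livers (SD, n = 4 and 5; log2 fold change 0.09 ± 0.30 SE). Of the 9 tested ABCC genes 6 fitted values were above 0 and 3 below, with a median of 0.09.

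The 15 members below the filter include several carriers known from other organs. No count was seen in any library for 7 of them: SLC22A6, SLC22A8, SLC22A11 and SLC22A12, which are known in humans as kidney carriers of organic anions and urate, SLCO1C1, the thyroxine carrier of the blood-brain barrier, SLCO6A1 of testis, and ABCC12. A count of 0 allows up to 3 counts, which is 0.154 to 0.213 CPM in a library and 0.0199 CPM over all 9; these limits cover counting error only. Of the 7 kidney tubule markers 0 passed the filter; they summed to at most 0.682 CPM in a MIDY and 0.678 CPM in a WT liver, and UMOD, SLC34A1 and AQP2 were at 0. The 8 others had counts. SLCO4C1 had 5 to 15 counts per library. ABCC11 had 0 to 10, SLCO5A1 0 to 8, SLC22A14 0 to 4, SLC22A16 and SLC22A2 0 to 3, SLCO4A1 0 to 2 and SLC22A20 0 to 1 counts per library.

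The livers differed in which members were high. Among MIDY livers, replicate 2 had the highest level of 7 of 23 tested members, SLCO2A1, SLCO3A1, SLC22A4, SLC22A13, ABCC1, ABCC4 and ABCC6. It had the lowest level of 8 others, SLC22A7, SLC22A17, SLC22A23, SLCO1B3, ABCC2, ABCC3, ABCC9 and ABCC10. MIDY replicate 4 was at the other end for several of these, with the lowest MIDY level of SLCO2A1, SLCO3A1, ABCC4 and ABCC6 and the highest of SLC22A7, SLCO1B3, ABCC3 and ABCC10. Among WT livers, replicate 3 had the lowest level of 10 members, and replicates 2 and 4 each had the highest of 6. MIDY replicate 2 thus carried both the highest SLCO2A1 level, at 26.0 CPM, and the lowest SLC22A7 level, at 24.0 CPM, of all 9 livers.

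Genes that control or hold these carriers were listed as well. Of 16 regulators and adaptors, all were tested and 0 were called, with a median log2 fold change of -0.06 and 5 values above 0. PPARA, a fatty acid-sensing nuclear receptor, averaged 49.9 ± 8.41 CPM in MIDY and 29.9 ± 7.57 CPM in WT livers (SD, n = 4 and 5; log2 fold change 0.74 ± 0.18 SE, edgeR adjusted p = 0.0756). AHR, the aryl hydrocarbon receptor, averaged 72.2 ± 16.9 CPM in MIDY and 119 ± 24.2 CPM in WT livers (SD, n = 4 and 5; log2 fold change -0.72 ± 0.18 SE, edgeR adjusted p = 0.0798). In both genes the groups did not overlap, which held in either direction for 6.35% of all tested genes. Of 16 other carriers of the bile-side and blood-side membranes, 13 were tested and 0 called, with a median log2 fold change of 0.14; the lactate carrier SLC16A1 (0.29 ± 0.13 SE, edgeR adjusted p = 0.284) and the phospholipid carrier ABCB4 (0.41 ± 0.20 SE, edgeR adjusted p = 0.352) had the smallest p. Of 8 genes of bilirubin and haem breakdown, 7 were tested and 0 called, with a median of 0.05; FABP1 (-0.34 ± 0.16 SE, edgeR adjusted p = 0.324) and HMOX1 (0.29 ± 0.18 SE, edgeR adjusted p = 0.455) had the smallest p.

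**Figure D4:**
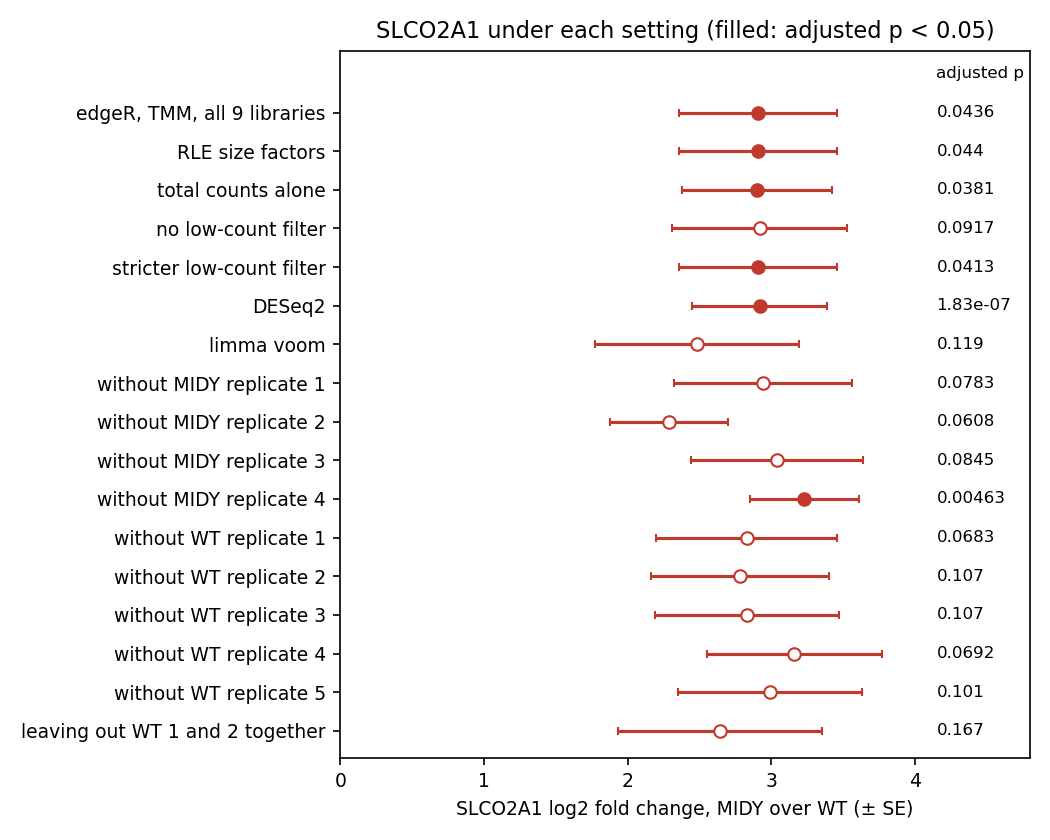
Fitted log2 fold change of SLCO2A1, MIDY over WT (horizontal axis, ± SE), under each processing setting and with each library left out, filled where the adjusted p printed at the right is below 0.05. The value lies between 2.29 and 3.23 in every setting shown, and the adjusted p lies between 1.83e-07 with DESeq2 and 0.167 without WT replicates 1 and 2.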

How the data were processed

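RNA of 9 pig livers was sequenced after ribosomal depletion; per the labels' protocols it was isolated with Trizol and made into libraries with the Encore complete kit. Per gene symbol and library, the authors deposited raw counts with no normalization. STAR, HTSeq, DESeq2 and Sscrofa11.1 are named in the submitters' processing notes; the sources used here do not give versions, annotation release or strand setting, so genes with overlapping models are uncertain. The table held 0 unused columns.

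Groups follow the genotype label, and libraries are named by group and replicate, numbered in the order of the samples. Each is taken as a separate animal; litter, day and batch were not used here. Counts were fitted with edgeR 4.0.16 in R 4.3.3 (filterByExpr, which kept 14100 of 29837 genes with 99.9% of the counts, TMM, robust quasi-likelihood), two-sided, with Benjamini-Hochberg adjustment over all genes tested and a threshold of 0.05. CPM are counts per TMM-scaled library size times 1e6. A standard error is the log2 fold change over the square root of F. All 39 members were found in the RefSeq gene table (Sscrofa11.1). The fit was tested on simulated data with 200 changed genes.

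Alternatives were RLE factors, total counts alone, no filter, a stricter one (1 CPM or more in 4 or more libraries), DESeq2 1.42.0 (adjusted p missing for 278 genes), limma 3.58.1 voom with sample weights, each library left out, and WT replicates 1 and 2 left out. The members and lists were chosen with earlier results of these data known. Values of every library are given for SLCO2A1 and for members called, with an unadjusted p below 0.05 or without overlap; from other lists, called genes and those with the 2 smallest p are named. SLCO1B3, SLCO3A1, SLC22A5, ABCC1, ABCC2, ABCC8 and HPGD are shown for their roles or positions, with their values known. The values of 1 tested member, included in the fits and in counts over the 24, are not reported here. A planned comparison of levels per coding length was not made, and no sequence is printed, since transcript lengths and sequences were not used here.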

Additional observations from a re-analysis of the deposited data

Results flagged for a closer look

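In 4 of the 46 combinations of a tested member and a genotype group, 1 liver lay further from the others than a Dixon test at 95% allows; chance gives about 1 in 20. SLC22A7 was 24.0 CPM in MIDY replicate 2, against 48.9 to 51.0 CPM in the other MIDY livers. ABCC1 was 4.93 CPM in MIDY replicate 2, against 3.87 to 4.04 CPM in the other MIDY livers. ABCC8 was 4.87 CPM in WT replicate 1, against 0.690 to 1.75 CPM in the other WT livers. ABCC5 was 13.7 CPM in WT replicate 3, against 21.1 to 24.1 CPM in the other WT livers. The wide range of SLCO2A1 among MIDY livers did not pass this test.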

How the results depend on the processing

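The fitted sign was the same in all alternatives for 17 of 23 tested members, as far as each was tested. For SLCO2A1 the log2 fold change was 2.29 to 3.23, but the call was lost without the low-count filter (2.92, edgeR adjusted p = 0.0917), with limma voom (2.48, adjusted p = 0.119), without WT replicates 1 and 2 (2.64, edgeR adjusted p = 0.167) and in 8 of 9 fits without a library, so that the members called higher came to 0 in each of these. DESeq2 called 2 members higher and 1 lower, with 355 genes higher and 284 lower over the table; SLCO1A2 (0.67, adjusted p = 0.0483) and SLC22A7 (-0.95, adjusted p = 0.00118) were the added ones. Limma voom called 82 genes lower. Without WT replicates 1 and 2, 42 genes were called higher and 24 lower, and the groups did not overlap in 3 members higher and 2 lower in MIDY; with total counts alone it was 2 higher. With a library left out, 34 to 152 genes were called higher and 4 to 107 lower, 0 to 1 members were called higher, and the groups were separate in 1 to 2 members higher and 1 to 3 lower. With all 9 libraries, each of the 6 members whose sign changed had a log2 fold change smaller in size than its SE. With a library left out, ABCC10 ran from -0.18 to 0.32, ABCC2 from -0.08 to 0.10, ABCC5 from -0.29 to 0.07, SLC22A18 from -0.09 to 0.05, SLC22A5 from -0.14 to 0.03 and SLC22A3 from -0.06 to 0.84. Without WT replicates 1 and 2, ABCC10 was -0.04, ABCC2 -0.05 and SLC22A18 0.05; with limma voom they were -0.01, -0.03 and 0.06. SLC22A18 was 0.00 without the filter and 0.02 with total counts alone. The causes were not tested. Members with few counts, SLC22A4 and SLC22A15 among them, did not pass the filter in every fit. No paired analysis was possible because the labels give no replicate numbers that link the groups.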
